A study of Homo sapiens with 4 samples.

Results

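EGFR, ERBB2 and ERBB3 encode receptors of the EGF family, AREG, EREG, HBEGF, TGFA and BTC encode ligands of these receptors, and ERRFI1 and LRIG1 encode inhibitors of them. These 10 genes, 3 receptors, 5 ligands and 2 inhibitors, were taken by symbol from the 59050 genes of the deposited counts, by their known roles. All 10 passed the filter on low counts, which kept 17479 genes. The cells carried the label HepG2, the name of a human line derived from liver cancer, and the libraries held poly(A)-selected RNA. In the untreated group were 2 libraries of cells at 0 h without the drug. In the doxorubicin group were 2 libraries of cells kept with 1 µg/ml doxorubicin, a drug that damages DNA, for 24 h, which the study used to activate p53. Time in culture and the drug cannot be told apart in these groups, and all libraries carry the label of a single line.

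EGF family ligands are made as membrane-bound precursors and are released by proteases of the cell surface. A ligand binds its receptor from outside, the receptors pair, and the kinase inside the cell phosphorylates the pair, from which RAS and the kinases RAF, MEK and ERK, as well as PI3K, are switched on. The output includes transcription of several of the ligands and of inhibitors of the receptors, so that the pathway contains both positive and negative feedback.

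The libraries held between 27572740 and 36272180 counts. Untreated replicate 2 stood apart from the other 3. Its Pearson correlation of log2 CPM (count over library total, times 1000000) with them, across the 17479 genes, which are not independent replicates, was between 0.883 and 0.887, while the other 3 correlated with each other at 0.975 to 0.988. The label of the cells was compared with 12 genes typical of liver and HepG2. Of these, 0 were above a CPM of 10 in any library, their summed CPM was between 1.16 and 7.17, and ALB had between 0 and 3 counts. Of 5 genes of simple epithelium, KRT8 and KRT18 were abundant, with KRT8 at a CPM of 2088 to 4105, while KRT19, EPCAM and CDH1 were all below a CPM of 1. Of 6 genes of squamous or basal epithelium KRT17 and SFN alone passed a CPM of 10, with KRT17 at 929 to 1587. The summed CPM of 5 fibroblast genes was between 120.0 and 160.2. Of these, COL1A1 and COL3A1 alone passed a CPM of 10, and COL1A2 had 0 to 2 counts. The summed CPM of 4 leukocyte genes was at most 0.519. The summed CPM of the simple epithelium genes was lower in the doxorubicin libraries (3527 and 3025) than in the untreated ones (5899 and 4752). KRT8 followed this order (4105 and 3968 untreated, 2440 and 2088 with doxorubicin). KRT18 did not, with 1793 and 783 untreated and 1086 and 937 with doxorubicin. The summed CPM of the squamous genes was highest in untreated replicate 2 (1950, against 1183 to 1768), with SFN at 723 there and 153 to 252 elsewhere. KRT17 was instead highest in doxorubicin replicate 1 (1587), with 1223 in untreated replicate 2. The part of these differences in the results below was not tested. CDKN1A, a target of p53, stood at a CPM of 380 in untreated replicate 1 but of 866 in untreated replicate 2, beside 1003 and 880 with doxorubicin.

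Promoters of 4 members are shown. EGFR and HBEGF differed most between the untreated libraries, and AREG and ERRFI1 were higher in both doxorubicin libraries than in both untreated ones. In CPM the latter also held for EGFR, TGFA, BTC and LRIG1, and for 30.3% of all genes. Each sequence runs 5′ to 3′ over the 250 bases before the transcription start (RefSeq, GRCh38.p14). Capitals mark matches on either strand to the GC box (GGGCGG), the CRE (TGACGTCA) or the TATA box (TATAAA).
EGFR, chr7:55018767-55019016, plus strand: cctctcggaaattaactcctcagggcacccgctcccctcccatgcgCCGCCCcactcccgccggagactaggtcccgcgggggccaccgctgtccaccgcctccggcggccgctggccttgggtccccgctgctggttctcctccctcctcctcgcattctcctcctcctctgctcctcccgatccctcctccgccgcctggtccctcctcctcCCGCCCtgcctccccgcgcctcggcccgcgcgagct
HBEGF, chr5:140346604-140346853, minus strand: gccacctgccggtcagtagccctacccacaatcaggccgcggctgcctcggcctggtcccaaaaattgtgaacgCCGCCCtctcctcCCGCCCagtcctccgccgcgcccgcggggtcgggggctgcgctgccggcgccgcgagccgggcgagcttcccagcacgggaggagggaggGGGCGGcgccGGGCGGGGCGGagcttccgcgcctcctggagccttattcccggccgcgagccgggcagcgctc
AREG, chr4:74444886-74445135, plus strand: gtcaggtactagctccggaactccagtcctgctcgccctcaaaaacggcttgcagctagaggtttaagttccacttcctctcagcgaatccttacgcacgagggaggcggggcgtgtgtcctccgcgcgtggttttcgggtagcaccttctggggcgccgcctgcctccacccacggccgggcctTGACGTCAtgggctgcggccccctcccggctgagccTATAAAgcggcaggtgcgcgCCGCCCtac
ERRFI1, chr1:8026310-8026559, minus strand: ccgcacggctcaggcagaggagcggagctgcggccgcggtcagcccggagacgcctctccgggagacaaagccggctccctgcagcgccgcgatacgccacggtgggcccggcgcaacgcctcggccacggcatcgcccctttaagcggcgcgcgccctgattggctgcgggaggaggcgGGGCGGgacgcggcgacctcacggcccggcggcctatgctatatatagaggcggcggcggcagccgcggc
The AREG window had 1 CRE, which started 65 bases before the transcription start, and 1 TATA box at 29 bases. A CRE was present in 1.63% and a TATA box in 10.8% of 34943 windows of the same length. The HBEGF window had 5 GC boxes, of which the pair closest to the start overlap, the EGFR window had 2 and the ERRFI1 and AREG windows had 1 each, while 42.6% of all windows had at least 1. AP-1 (TGANTCA) and the E-box (CACGTG) were also searched and had 0 matches in these windows, against 6.59% and 6.32% of all windows. The GC content of the 4 windows was 73.6%, 76.4%, 65.2% and 75.2% in the order shown, and the median of all windows was 58.0%. The windows of EREG and BTC, not shown, had a GC content of 58.0% and 62.0%. The EREG window also had a TATA box, at 32 bases, and the BTC window had 0 matches. These matches describe the letters and do not show that a factor bound. A RefSeq start equal to the annotated gene start was found for 6 of the 10 members, and not for ERBB2, ERBB3, TGFA or LRIG1.

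The 3 receptor genes differed widely in level. EGFR (chromosome 7, 55019017 to 55211628, GRCh38), the receptor that binds all 5 ligands examined here, measured 1116 and 182 CPM in untreated replicates 1 and 2 and 1205 and 1307 CPM in doxorubicin replicates 1 and 2. The low value is that of untreated replicate 2, which was 6.12-fold below untreated replicate 1, whereas the doxorubicin replicates were 1.09-fold apart. In CPM the groups did not overlap, but after scaling by TMM factors untreated replicate 1 lay within the doxorubicin range. The log2 fold change of EGFR (doxorubicin over untreated) was 0.79 (standard error, SE, 0.78, 95% interval -1.15 to 2.73, adjusted p-value 0.800 from the quasi-likelihood test of edgeR after Benjamini-Hochberg correction over all genes). Without untreated replicate 2 it was 0.03 (95% interval -0.39 to 0.46), which lies within a 2-fold change in either direction, and without untreated replicate 1 it was 2.60. In these fits the single untreated library is assumed to vary like the doxorubicin replicates. EGFR-AS1, a non-coding gene antisense to EGFR, had 92 and 7 counts in untreated cells and 125 and 87 in doxorubicin-treated cells. Because the use of strand in counting is not given in the sources used here, reads of these genes may not be separated. In bulk libraries such as these, fewer cells with a transcript and less transcript per cell cannot be told apart.

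ERBB2 (chromosome 17, 39687914 to 39730426), a receptor without a ligand of its own that pairs with the others, was the most even member. It reached 110.9 and 106.2 CPM in untreated cells and 98.2 and 94.4 CPM in doxorubicin-treated cells. All values lay close together and the doxorubicin libraries were the lower in both, in CPM and after TMM scaling. ERBB2 had a log2 fold change of -0.33 (SE 0.30, adjusted p-value 0.790, edgeR), and -0.34 without untreated replicate 2. ERBB3 (chromosome 12, 56076799 to 56103505), a receptor with little kinase activity that binds neuregulins, had few reads, with 117 and 135 counts in untreated cells and 60 and 95 in doxorubicin-treated cells. These are a CPM of 3.23 and 4.68 against 1.75 and 3.45, which overlap in CPM, and the counting intervals (95%, exact Poisson, counting error alone) of untreated replicate 1 (2.67 to 3.87) and doxorubicin replicate 2 (2.79 to 4.21) overlap as well. The fitted log2 fold change was -0.78 (SE 0.59, adjusted p-value 0.775, edgeR). It was -0.48 (95% interval -1.23 to 0.27) without untreated replicate 2 and -1.06 without untreated replicate 1.

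Levels of different genes were compared as RPKM, the CPM per kilobase of annotated exon. EGFR had an RPKM of 96.5, 15.8, 104.2 and 113.1 in untreated replicates 1 and 2 and doxorubicin replicates 1 and 2, and ERBB2 had 19.6, 18.8, 17.3 and 16.7. EGFR took 82.8% of the summed RPKM of the 3 receptors in untreated replicate 1 and 85.6% and 86.8% in the doxorubicin replicates, but 44.8% in untreated replicate 2. In that library ERBB2 was the highest receptor, while in the other 3 EGFR was. ERBB3 was the lowest receptor in all 4, with an RPKM between 0.257 and 0.686.

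**Figure D1:**
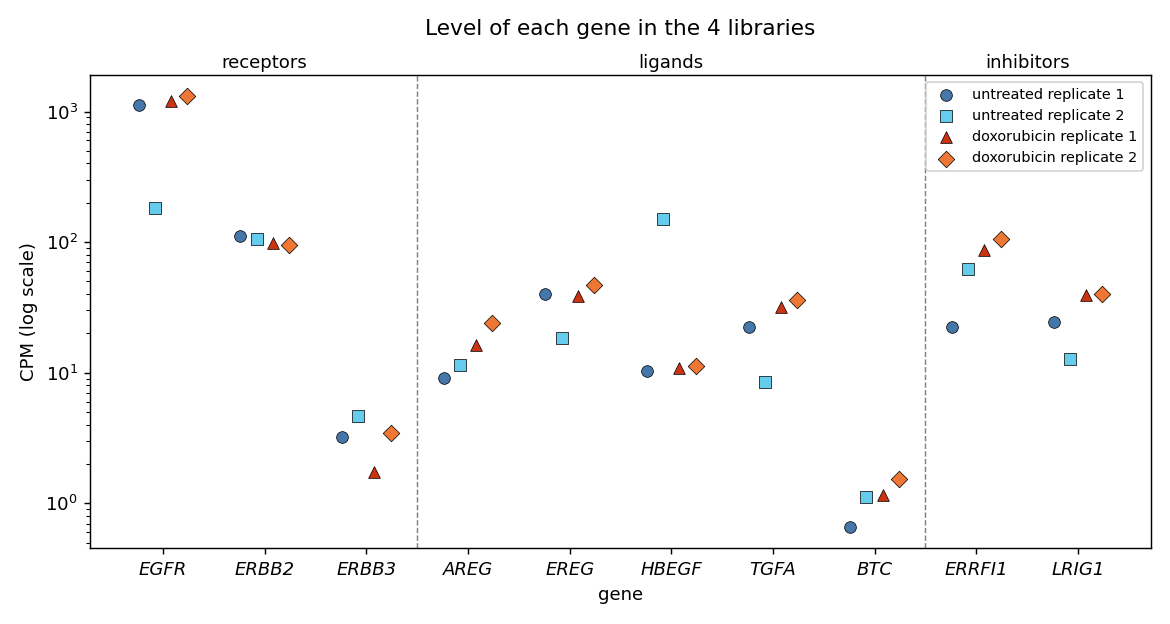
CPM of each gene (log axis) in each of the 4 libraries, 1 point per library, with receptors, ligands and inhibitors set apart by dashed lines. Untreated replicate 2 lies far below the other libraries in EGFR (CPM of 182) and far above them in HBEGF (CPM of 151). Both doxorubicin libraries lie above both untreated libraries in EGFR, AREG, TGFA, BTC, ERRFI1 and LRIG1, as in 30.3% of all genes.

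Among the ligands, HBEGF was high in untreated replicate 2 alone. In CPM, AREG, TGFA and BTC were higher in both doxorubicin libraries than in both untreated ones, as were 30.3% of all genes. After TMM scaling the groups overlapped in BTC. HBEGF (chromosome 5, 140332843 to 140346603), which encodes heparin-binding EGF-like growth factor, showed 10.2 and 150.7 CPM in untreated replicates 1 and 2 and 10.9 and 11.3 CPM in doxorubicin replicates 1 and 2. The high value is that of untreated replicate 2, 14.7-fold above untreated replicate 1, and the other 3 libraries were within 1.10-fold of each other. HBEGF had the largest difference of the members in size, a log2 fold change of -3.01 (SE 1.10, 95% interval -5.74 to -0.27). Its adjusted p-value was 0.773 in edgeR, and it was the 1 member with an unadjusted p-value under 0.05 (0.0455 in the same fit across all genes, where 4.39% of all genes were under it). With untreated replicate 2 left out the log2 fold change was -0.02 (95% interval -0.60 to 0.55), and with untreated replicate 1 left out it was -3.95. The replicate block gave -2.00, with an adjusted p-value of 0.509 (edgeR).

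AREG (chromosome 4, 74445136 to 74455005), which encodes amphiregulin, a ligand of EGFR, stood at 9.15 and 11.4 CPM in untreated cells and 16.4 and 23.9 CPM in doxorubicin-treated cells. Both doxorubicin libraries were above both untreated libraries, in CPM and after TMM scaling, and here untreated replicate 2 lay within the range of the others. The log2 fold change of AREG was 0.81 (SE 0.43, adjusted p-value 0.773, edgeR). When untreated replicate 2 was left out it was 0.99 (95% interval 0.44 to 1.55), with an adjusted p-value of 0.0160 (edgeR, Benjamini-Hochberg), just short of the value of 1 that a call required. Without untreated replicate 1 it was 0.63, with an adjusted p-value of 0.0489. AREG was thus the 1 member under an adjusted p-value of 0.05 with either untreated library as the control, though not past the fold threshold with either, where 7.08% of all genes were under it without untreated replicate 2 and 56.4% without untreated replicate 1.

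EREG, AREG and BTC lie in a cluster on chromosome 4 between 74365145 and 74794523. EREG (74365145 to 74388749), which encodes epiregulin, a ligand of EGFR and ERBB4, gave 40.3 and 18.4 CPM in untreated cells and 38.6 and 47.2 CPM in doxorubicin-treated cells. Untreated replicate 2 was the lowest, and untreated replicate 1 lay within the doxorubicin range. Its log2 fold change was 0.38 (SE 0.48), -0.051 without untreated replicate 2 and 1.03 without untreated replicate 1. BTC (74744759 to 74794523), which encodes betacellulin, had the fewest reads of the members, with 24 and 32 counts in untreated cells and 40 and 42 in doxorubicin-treated cells. Its CPM of 0.662 and 1.11 against 1.17 and 1.52 did not overlap between groups, but the counting intervals of untreated replicate 2 (0.758 to 1.56) and doxorubicin replicate 1 (0.833 to 1.59) did, and so did the groups after TMM scaling. BTC had a log2 fold change of 0.46 (SE 0.60), 0.87 without untreated replicate 2 and 0.080 without untreated replicate 1. Of these 3 members, AREG alone had groups that did not overlap both in CPM and after TMM scaling. Over all genes, groups did not overlap in 41.8% in CPM and in 39.3% after TMM scaling.

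TGFA (chromosome 2, 70447284 to 70554193), which encodes transforming growth factor alpha, came to 22.6 and 8.45 CPM in untreated cells and 31.6 and 35.9 CPM in doxorubicin-treated cells. The doxorubicin libraries were above both untreated ones, which themselves were 2.67-fold apart. For TGFA the log2 fold change was 0.96 (SE 0.55, adjusted p-value 0.773, edgeR), and 0.44 (95% interval -0.06 to 0.94) without untreated replicate 2. Without untreated replicate 1 TGFA was called, with a log2 fold change of 1.81 and an adjusted p-value of 5.0e-09 (edgeR).

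Per kilobase of exon, EREG was the highest ligand in untreated replicate 1 (RPKM of 8.73), ahead of AREG (7.42), TGFA (4.90), HBEGF (4.34) and BTC (0.249). AREG was the highest in both doxorubicin libraries (RPKM of 13.3 and 19.4), ahead of EREG (8.37 and 10.2), TGFA (6.86 and 7.81) and HBEGF (4.63 and 4.78). AREG took 28.9% of the summed RPKM of the 5 ligands in untreated replicate 1, and 39.5% and 45.3% in the doxorubicin libraries. In untreated replicate 2 HBEGF took 80.5% (RPKM of 63.9) and AREG 11.6%. Summed over the ligands, RPKM was 25.6 and 79.4 without the drug (replicates 1 and 2) against 33.6 and 42.8 with doxorubicin, so that the groups overlapped.

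**Figure D2:**
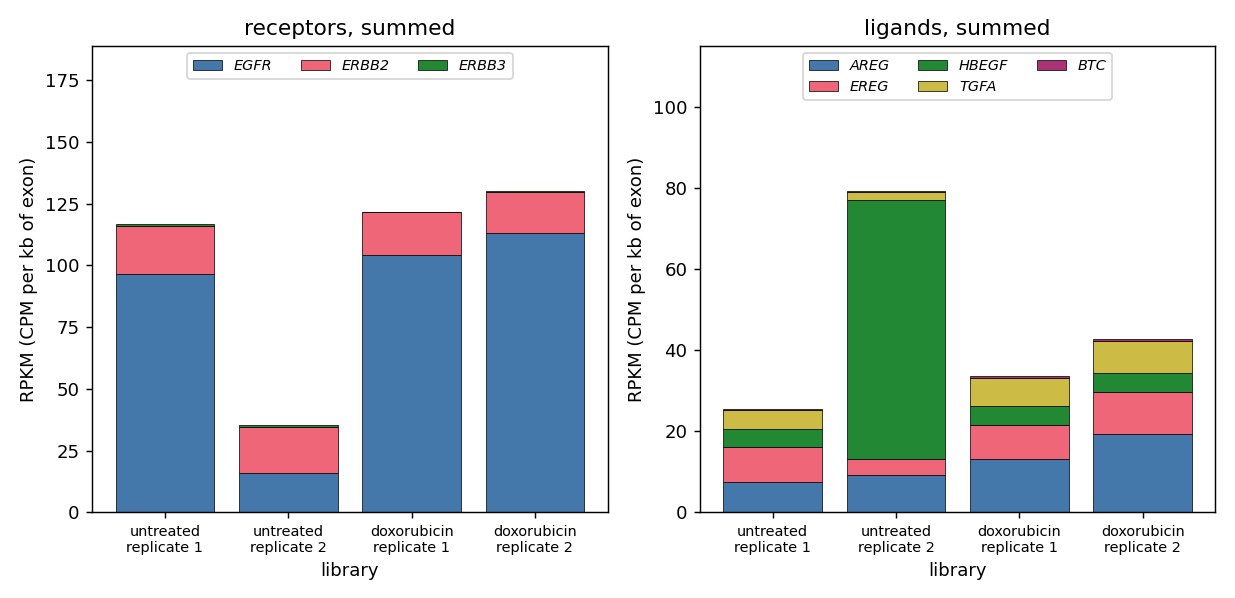
Stacked bars of RPKM (CPM per kilobase of exon, linear axis from 0) of the 3 receptors (left) and the 5 ligands (right), 1 bar per library. In untreated replicate 2 the EGFR segment is short (RPKM of 15.8) and HBEGF takes 80.5% of the ligand bar, while AREG is the largest ligand segment in both doxorubicin libraries.

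Both inhibitors were higher in both doxorubicin libraries than in both untreated ones, as were 30.3% of all genes in CPM. ERRFI1 (chromosome 1, 8004404 to 8026309), which encodes MIG6, a cytoplasmic protein that binds the kinase domain of EGFR and blocks it, measured 22.5 and 62.7 CPM in untreated cells and 86.7 and 106.2 CPM in doxorubicin-treated cells. Each doxorubicin library was above both untreated libraries, and the untreated libraries were 2.79-fold apart. The log2 fold change of ERRFI1 was 1.02 (SE 0.53, 95% interval -0.31 to 2.35, adjusted p-value 0.773, edgeR). Against untreated replicate 1 alone, ERRFI1 rose by 1.96 on the log2 scale (3.88-fold, SE 0.24, 95% interval 1.49 to 2.43, adjusted p-value 3.0e-11 in edgeR after Benjamini-Hochberg correction). Without untreated replicate 1 its log2 fold change was 0.43 (95% interval -0.02 to 0.89) with an adjusted p-value of 0.105, so the call of ERRFI1 depends on which untreated library serves as the control. LRIG1 (chromosome 3, 66378797 to 66501263), which encodes a transmembrane protein that lowers the amount of EGF family receptors at the cell surface, reached 24.5 and 12.7 CPM in untreated cells and 39.3 and 40.3 CPM in doxorubicin-treated cells. The doxorubicin libraries were 1.02-fold apart and both were above the untreated ones. Its log2 fold change was 0.94 (SE 0.45, adjusted p-value 0.773, edgeR). Leaving out untreated replicate 2 gave 0.56 (95% interval 0.07 to 1.06, adjusted p-value 0.185), and leaving out untreated replicate 1 gave 1.46 (adjusted p-value 7.1e-07, edgeR).

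Over all 4 libraries, 0 of the 10 members were called as differentially expressed, as were 0.0% of all genes tested. A call required that the adjusted p-value of the edgeR test lie below 0.05 and that the fitted log2 fold change reach 1 or -1. The exact test of edgeR (0.217% of all genes called), its likelihood ratio test (0.366%), DESeq2 (0.509%) and the fit with a replicate block (0.114%) also called 0 members. At an unadjusted p-value under 0.05 there was 1 member of 10, against 4.39% of all genes, and 3 of 10 with the replicate block, against 6.14%. The median log2 fold change of the members was 0.62, with 7 above 0 and 3 below 0, beside 0.01 over all genes. In CPM, 6 members were higher in both doxorubicin libraries than in both untreated libraries and 1 was lower, where the background was 30.3% of all genes higher and 11.5% lower. After TMM scaling 4 members were higher (AREG, TGFA, ERRFI1, LRIG1) and 3 lower (ERBB2, ERBB3, HBEGF). Together these compare with 39.3% of all genes whose groups did not overlap. ERBB3 and HBEGF overlapped in CPM, and so did their counting intervals in untreated replicate 1 and doxorubicin replicate 2. For HBEGF these intervals were 9.21 to 11.3 and 10.1 to 12.6 CPM. Library size alone in place of TMM factors raised the median log2 fold change of all genes by 0.16, and no member changed its sign with it.

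**Figure D3:**
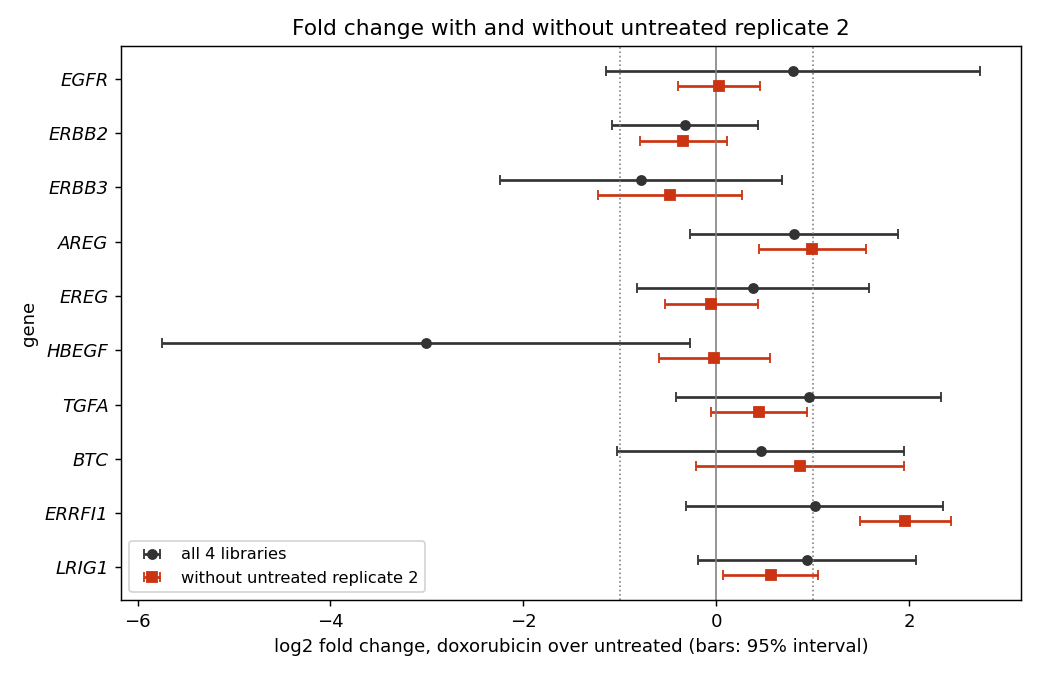
Log2 fold change of each gene (doxorubicin over untreated, linear axis) with its 95% interval from the edgeR fit, for all 4 libraries (dark circles) and without untreated replicate 2 (red squares), where the dotted lines mark a 2-fold change. HBEGF moves from -3.01 to -0.02 and EGFR from 0.79 to 0.03, while ERRFI1 moves from 1.02 to 1.96.

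Without untreated replicate 2, 1 of the 10 members was called, ERRFI1, against a background of 4.98% of all genes (4.42% higher and 0.566% lower in doxorubicin-treated cells). The adjusted p-value alone was under 0.05 in 2 members, AREG and ERRFI1, against 7.08% of all genes, and the median log2 fold change of the members was 0.23 beside 0.05 over all genes. Without untreated replicate 1, 6 members were called (EGFR, EREG, TGFA and LRIG1 higher, ERBB3 and HBEGF lower), where 41.0% of all genes were called (21.4% higher and 19.6% lower). These fits share both doxorubicin libraries. The CPM of untreated replicate 2 was beyond that of all other 3 libraries in 6 of the 10 members, against 81.6% of all genes. It was the lowest in EGFR, EREG, TGFA and LRIG1 and the highest in ERBB3 and HBEGF. The untreated replicates were at least 2-fold apart in 5 members (EGFR, EREG, HBEGF, TGFA and ERRFI1), against 45.9% of all genes, and the doxorubicin replicates in 0 members, against 6.09% of all genes.

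The 3 genes whose log2 CPM, centred on the mean of the 4 libraries, was closest to that of EGFR were TRIO, PHACTR2 and CLMP, with root mean square distances of 0.0231, 0.0260 and 0.0338. TRIO showed 249.7 and 40.2 CPM in untreated cells and 260.4 and 281.0 CPM in doxorubicin-treated cells, so that it too was low in untreated replicate 2 alone. Likeness over 4 libraries is a description of these libraries.

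The rest of the pathway was examined as 53 genes in 5 lists, of which 49 passed the filter. Over all 4 libraries 0 of the 49 were called (edgeR), 3 had an unadjusted p-value under 0.05 (4.39% of all genes), and the median log2 fold change was 0.33 beside 0.01 over all genes. Of the 49, 36 were above 0, against 50.8% of all genes. With untreated replicate 1 left out, 38 were above 0 and the median was 0.55, beside 51.6% and 0.06 over all genes. Untreated replicate 2 was below the other 3 libraries in 38 of the 49 and above them in 6, where it was below them in 45.0% and above them in 36.6% of all genes. Without it, 2 of the 49 were called, against the background of 4.98%, and the median was 0.11 beside 0.05 over all genes.

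Of the 7 other receptors and ligands, 5 were tested and 0 were called over all 4 libraries. Their log2 fold changes were between 0.40 (EPGN, the ligand epigen) and 0.75 (NRG4, a neuregulin ligand of ERBB4). EGF itself had 6 and 24 counts in untreated cells and 24 and 29 in doxorubicin-treated cells. It was called without untreated replicate 2, with a log2 fold change of 2.22 and an adjusted p-value of 0.0490 (edgeR), and the untreated value in that fit is the 6 counts of untreated replicate 1. ERBB4 had between 6 and 11 counts and NRG3 had 0 counts in every library, which allows a CPM of up to 0.0827 to 0.109 in them (3 counts, counting error alone).

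Of the 7 genes of ligand shedding, 6 were tested and 0 were called with or without untreated replicate 2. The protease genes ADAM9, ADAM10 and ADAM17 had log2 fold changes of 0.03, 0.55 and 0.28. RHBDF1, which encodes iRhom1, a partner of ADAM17, had the lowest, -1.41. Its CPM was 18.0 and 118.9 in untreated cells and 28.1 and 29.1 in doxorubicin-treated cells, again with the high value in untreated replicate 2, and its log2 fold change without that library was 0.53 (adjusted p-value 0.249, edgeR). TIMP3, which encodes an inhibitor of such proteases, had the highest, 0.71.

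Of the 10 other negative regulators of the receptors, all were tested, 9 were above 0 and 0 were called. CBLB, which encodes a ubiquitin ligase for activated receptors, had the highest log2 fold change, 1.41 (SE 0.56, adjusted p-value 0.773, edgeR). Its CPM was 10.1 and 3.98 in untreated cells and 21.4 and 20.4 in doxorubicin-treated cells, with both doxorubicin libraries above both untreated ones. CBLB without untreated replicate 2 had 0.92 with an adjusted p-value of 0.0272, under the fold threshold, and 6 of the 10 genes were above 0. SOCS4 had the lowest value over all libraries, -0.63.

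Among the 19 genes of signal relay, HRAS and SOS2 had an unadjusted p-value under 0.05 over all 4 libraries (0.0111 and 0.0384, edgeR). Over all genes 4.39% were under it, and 0 of the 19 were called. HRAS, which encodes a RAS protein, stood at 49.5 and 48.2 CPM in untreated cells and 8.89 and 21.3 CPM in doxorubicin-treated cells. Here the untreated libraries were close to each other and both doxorubicin libraries were lower, though these were further apart from each other. The log2 fold change of HRAS was -1.87 (SE 0.49, adjusted p-value 0.773, edgeR), and without untreated replicate 2 it fell by 1.87 on the log2 scale with an adjusted p-value of 2.2e-11. NRAS, which encodes another RAS protein, had a log2 fold change of 0.30 and was not called in either fit. SOS2, which encodes an exchange factor that activates RAS, gave 10.8 and 5.44 CPM in untreated cells and 20.4 and 26.7 CPM in doxorubicin-treated cells. Its log2 fold change was 1.37, and 0.98 without untreated replicate 2 (adjusted p-value 0.0141, edgeR).

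Of the 10 genes taken as transcriptional output of ERK, 9 were tested, 5 were above 0, 4 were below 0 and 0 were called. PHLDA1 had the highest log2 fold change, 1.04 (SE 0.39, unadjusted p-value 0.0425, adjusted p-value 0.773, edgeR), at 32.4 and 25.4 CPM in untreated cells against 50.8 and 82.8 CPM in doxorubicin-treated cells. DUSP6, an ERK phosphatase, had the lowest, -1.06. Its CPM was 9.59 and 49.7 in untreated cells and 15.6 and 16.03 in doxorubicin-treated cells, and without untreated replicate 2 its log2 fold change was 0.58. Leaving out untreated replicate 1 gave 5 of the 9 genes above 0 and 4 below 0, with a median of 0.31. All genes had 51.6% above 0 and a median of 0.06 there. Leaving out untreated replicate 2 gave 8 of the 9 above 0, with a median of 0.37. All genes in the fit without untreated replicate 2 had 54.0% above 0 and a median of 0.05. In that fit 1 of the 9, PHLDA1, had an adjusted p-value under 0.05 (0.00991, edgeR), at a log2 fold change of 0.90, against 7.08% of all genes.

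**Figure D4:**
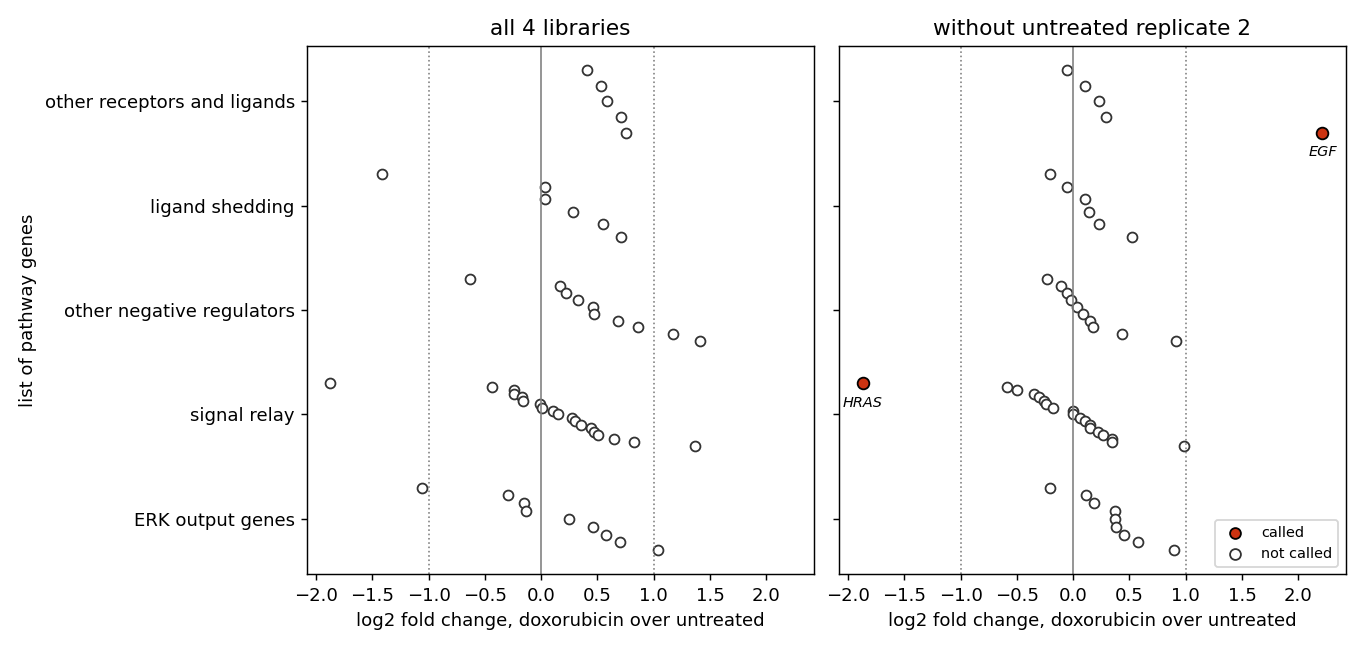
Log2 fold change (doxorubicin over untreated, linear axis) of the 49 tested pathway genes by list, 1 circle per gene, for all 4 libraries (left) and without untreated replicate 2 (right), where filled circles passed both thresholds and dotted lines mark a 2-fold change. No circle is filled on the left, and on the right HRAS (-1.87) and EGF (2.22) are filled.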

How the data were processed

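RNA-seq of 4 libraries was used, grouped by their titles. A treatment tag of the treated libraries reads p53-miRNA, and the titles and treatment protocol were followed. The authors trimmed the reads with Cutadapt, mapped them with HISAT2 to hg38 and deposited raw counts per gene symbol on GENCODE release 31. The methods name HTSeq, while the layout is that of featureCounts. Versions and the use of strand are not given in the sources used here.

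CPM was count over library total. The test was that of edgeR 4.0.16, run under R 4.3.3 (with filterByExpr, TMM, estimateDisp, glmQLFit with legacy=FALSE, glmQLFTest, prior count 0.125), with doxorubicin over untreated as the contrast. A call needed a p-value below 0.05 after Benjamini-Hochberg correction over all genes, and a log2 fold change that reached 1 or -1. Standard errors come from the fitted weights and the quasi-likelihood dispersion, and intervals use its degrees of freedom. The test was tried on simulated data. RPKM used the union of exons of basic transcripts in GENCODE release 44 (GRCh38), which also gave positions. ERBB2, ERBB3, TGFA, ERRFI1, LRIG1 and EGFR overlap other annotated genes, so their reads may be shared. Promoters came from RefSeq.

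The series text calls the libraries biological replicates. The text names the members, and in the pathway lists those whose unadjusted p-value was below 0.05 and those highest or lowest in log2 fold change. EGF, ERBB4, NRG3, ADAM9, ADAM10, ADAM17 and NRAS were named after their values were seen. The members and lists were chosen with earlier results of these data known. The alternatives were other tests (exact, likelihood ratio, DESeq2 1.42.0), RLE factors, library size alone, other filters, the replicate block, 2 as the prior count, and leaving out each library. The 3-count floor was a CPM of 0.0827 to 0.109.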

Additional observations from a re-analysis of the deposited data

How the results depend on the processing

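Over all genes the quasi-likelihood test of edgeR called 0 genes (768 at an unadjusted p-value under 0.05), and so it did with RLE factors, library size alone, no filter, the filter on a CPM of 1 in 2 libraries and the earlier form of the fit, which was added after seeing the data. The exact test called 38, the likelihood ratio test 64, DESeq2 89 and the replicate block 20, and the cause was not tested. In each of these alternatives 0 members and 0 pathway genes were called and all 10 members kept the sign of their log2 fold change. Libraries that share a number deviated from the group mean with a correlation of 0.0219. This value cannot decide whether the libraries were paired, because the untreated deviations include the departure of untreated replicate 2. With the replicate block the unadjusted p-value was under 0.05 in 3 members (1 without it), and the log2 fold change of HBEGF was -2.00 in place of -3.01 and that of EGFR 1.32 in place of 0.79.

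With each library left out, 0 to 7173 genes, 0 to 6 members and 0 to 18 pathway genes were called, and the median log2 fold change of the members was between 0.23 and 0.70. Leaving out untreated replicate 1 gave 7173 genes, 6 members and 18 pathway genes, leaving out untreated replicate 2 gave 871, 1 and 2, and leaving out either doxorubicin replicate gave 0. Without untreated replicate 2 EREG changed its sign, and its values with each library left out were between -0.051 and 1.03. With 24 to 42 counts per library, BTC has wide counting intervals (a CPM of 0.424 to 0.985 in untreated replicate 1).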
